A study of Homo sapiens and Mus musculus with 12 samples.

Results

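The genes described here encode H3K9 demethylases of the KDM3 and KDM4 families: Kdm3a, Kdm3b, Kdm4a, Kdm4b and Kdm4c in mouse natural killer (NK) cells and KDM3A, KDM3B, KDM4A, KDM4B and KDM4C in a human NK cell line. They were chosen by symbol and made up 5 of 22021 genes in the mouse count table and 5 of 18304 genes in the human count table. All 5 members in each species passed the filter on low counts, which left 13189 mouse genes and 12727 human genes for testing.

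These enzymes remove methyl groups from lysine 9 of histone H3, a mark of silenced chromatin, and so work against the methyltransferase EHMT2 (G9a), which with its partner EHMT1 writes mono- and dimethylation at that residue. The KDM3 enzymes act on mono- and dimethylated H3K9, and KDM4A, KDM4B and KDM4C act mainly on the trimethylated and dimethylated forms of H3K9 and also demethylate H3K36. All of them are JmjC-domain oxygenases that use iron, molecular oxygen and 2-oxoglutarate, and KDM3A, KDM4B and KDM4C are known as hypoxia-inducible genes in many cell types.

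The series measured polyadenylated RNA in 4 groups of 3 libraries. In the mouse experiment, NK cells sorted from spleen came from Ehmt2 flox/flox animals without Cre (WT) or from Ehmt2 flox/flox animals carrying Ncr1-iCre (KO), on a C57BL/6J background with age-matched and sex-matched young adults. All the mice in both groups therefore carried the floxed alleles, and the Cre was driven from the gene for the NK receptor NKp46, so that deletion was restricted to cells that have expressed that receptor. The titles name the knockout as EHMT2-KO whereas the genotype field of the same samples reads Ezh2-KO, and the samples were grouped by title. In the human experiment, NK92MI cells, an established NK lymphoma line engineered to make interleukin-2, were cultured with DMSO or with the EHMT2 inhibitor BIX-01294 (BIX). The labels of the human libraries give no dose or duration of treatment. The 3 control columns of the human table are named CON and were tied to the DMSO group but not to a replicate number, so DMSO values are given in no order. Because nothing states that replicates came from separate animals or cultures, the p-values measure only the spread between these libraries.

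Total counts ran from 25891680 (WT replicate 2) to 37438868 in the mouse libraries and from 16579469 to 17165446 in the human libraries. The biological coefficient of variation was 18.2% in mouse and 7.55% in human. The targeted gene Ehmt2 measured 275, 284 and 285 CPM (counts scaled to a common library size with TMM factors) in the WT libraries and 171, 143 and 137 CPM in the KO libraries, so transcript remained in every KO library at a lower level. Its log2 fold change was -0.91 ± 0.10 (SE, n = 3 per group; edgeR's quasi-likelihood test, Benjamini-Hochberg adjusted p = 0.0162), and it did not pass without WT replicate 3 (log2 -0.90, adjusted p = 0.0587), KO replicate 2 (-0.87, adjusted p = 0.0986) or KO replicate 3 (-0.84, adjusted p = 0.121), where at most 14 of all genes passed. The partner gene Ehmt1 differed by 0.09 (adjusted p = 0.572). By Western blot, a measure of protein, the paper reports complete deletion of Ehmt2 in splenic NK cells of KO mice. Counts per gene do not separate the floxed exons from the rest of the Ehmt2 gene. Summed markers of NK cells were 5694 to 9587 CPM in WT and 10779 to 12554 CPM in KO, and all 12 were higher in KO by fitted value. Summed markers of B cells, macrophages, neutrophils, erythroid cells and platelets, T cells and dendritic cells together were 5160 to 9717 CPM in WT and 2904 to 4606 CPM in KO. Of 42 such markers tested, 40 were lower in KO by fitted value, 15 of them with an adjusted p under 0.05. The part of this difference in the values of the demethylases was not tested.

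**Figure D1:**
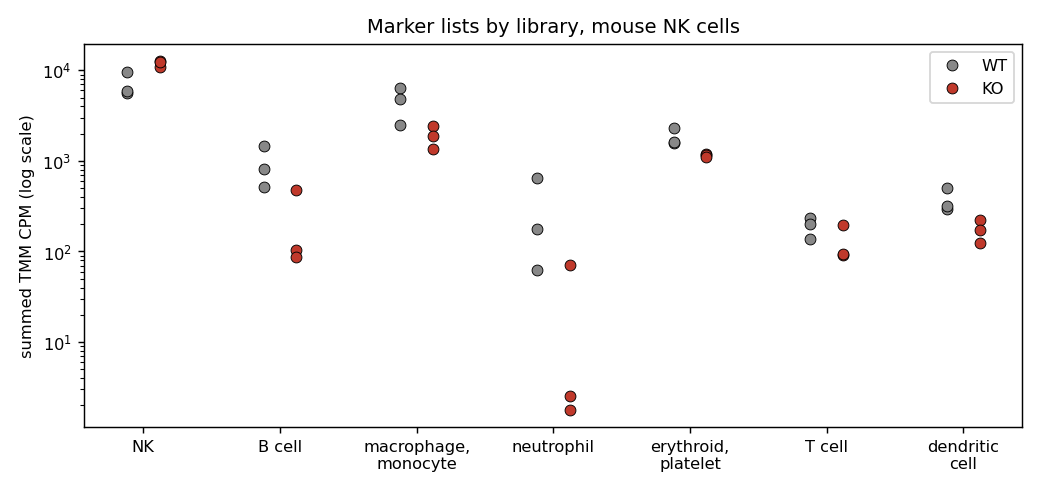
Summed TMM-normalized CPM (log scale) of 7 lists of cell type marker genes in each of the 3 WT and 3 KO mouse libraries, 1 point per library. The NK list sits at 10779 to 12554 CPM in KO and at 5694 to 9587 CPM in WT, whereas the macrophage and monocyte list reaches 6396 CPM in WT and at most 2459 CPM in KO.

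In NK92MI cells the 12 NK markers summed to 5894 to 6361 CPM with DMSO and 7651 to 9616 CPM with BIX, and at an adjusted p under 0.05 by edgeR 7 of them were higher and 3 lower. Of the markers of other cell types, 18 were in the human table, 6 passed the filter and 4 of these were higher with BIX at an adjusted p under 0.05. The T cell list, with only 2 genes in the table, was at 486 to 505 CPM with DMSO and 516 to 592 CPM with BIX. Only 1 of these was tested, and it did not pass. The neutrophil list was at most 2.97 CPM. EHMT2 itself measured 54.3, 57.1 and 61.6 CPM with DMSO and 40.4, 39.3 and 35.8 CPM with BIX, a log2 fold change of -0.58 ± 0.08 (SE; edgeR, adjusted p = 0.000101).

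Of the 5 mouse genes, Kdm3a was the one that rose in the KO libraries under TMM scaling at an adjusted p under 0.05. Kdm3a encodes an H3K9me1/me2 demethylase and lies at chr6:71588972-71632990 on the minus strand (GRCm38). It measured 63.0, 76.8 and 75.7 CPM in WT replicates 1 to 3 and 91.3, 97.7 and 94.5 CPM in KO replicates 1 to 3. Every KO library was above every WT library, and WT replicate 1 was the lowest of all. The means were 71.8 ± 7.64 and 94.5 ± 3.23 CPM (SD, n = 3), a fold of 1.32 with a 95% confidence interval of 1.13 to 1.54 (log2 0.40 ± 0.10 SE; edgeR's quasi-likelihood test, adjusted p = 0.0452). The other 4 members did not pass, and 11.9% of all tested genes passed, 4.44% in this direction and 7.43% in the other.

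Under the study's stricter call rule, an adjusted p under 0.01 with a log2 fold change beyond 0.5, no member was called by edgeR. That rule called 0% of all mouse genes by edgeR, although 4719 genes (35.8%) had an unadjusted p under 0.05 and DESeq2 called 1495 genes. The paper applied the rule with DESeq2 and reports genes called in both directions. The call of Kdm3a at 0.05 was lost when WT replicate 1 (log2 0.31, adjusted p = 0.112), WT replicate 3 (log2 0.43, adjusted p = 0.122), KO replicate 2 (log2 0.37, adjusted p = 0.160) or KO replicate 3 (log2 0.40, adjusted p = 0.150) was left out. In those edgeR fits 99, 14, 0 and 0 of all genes passed at 0.05. Without WT replicate 1, the lowest library for Kdm3a, its fitted value also fell, from 0.40 to 0.31. In bulk RNA, a change in the share of cells that express a gene and a change in RNA per cell cannot be told apart.

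Kdm3b encodes the other KDM3 enzyme among the 5 members, with the same substrates. Its level was 172, 219 and 185 CPM in WT and 185, 215 and 228 CPM in KO. The groups overlapped, since WT replicate 2 exceeded KO replicates 1 and 2. The fitted log2 fold change was 0.12 with a 95% confidence interval of -0.15 to 0.40 (edgeR, adjusted p = 0.483). In the GENCODE M21 annotation, 24.6% of the exon bases of Kdm3b are shared with Gm26538, a noncoding gene on the opposite strand, and the strand setting of the counting is not given in the sources used here, so reads from the pair cannot be told apart in that stretch.

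Among the KDM4 genes, the mouse members gave smaller and unequal differences. Kdm4a, at chr4:118136957-118180043 on the minus strand, measured 103, 116 and 105 CPM in WT and 96.2, 112 and 113 CPM in KO. The ranges overlapped, with KO replicate 1 below every WT library and WT replicate 2 above every KO library, and the log2 fold change of -0.01 had a 95% confidence interval of -0.23 to 0.20 (edgeR, adjusted p = 0.922). Kdm4b, at chr17:56326062-56402870 on the plus strand, measured 54.1, 57.7 and 59.3 CPM in WT and 60.0, 68.9 and 70.8 CPM in KO. All KO libraries lay above all WT libraries, but KO replicate 1 was only just above WT replicate 3. Its log2 fold change of 0.22 (95% confidence interval 0.01 to 0.44) did not pass after adjustment (edgeR, adjusted p = 0.130). Kdm4c, at chr4:74242497-74405860 on the plus strand, measured 36.0, 41.5 and 36.7 CPM in WT and 39.6, 43.9 and 47.9 CPM in KO. WT replicate 2 lay above KO replicate 1, and the log2 fold change was 0.20 (95% confidence interval -0.04 to 0.45; edgeR, adjusted p = 0.205).

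In 2 of the 5 mouse genes, Kdm3a and Kdm4b, the KO libraries were all above the WT libraries. Among all tested mouse genes, 19.1% had KO wholly above WT, 19.3% had KO wholly below WT and 38.5% had no overlap in either direction. The median log2 fold change of the 5 members was 0.20, beside 0.01 over all tested genes. An exact two-sided permutation test of 3 against 3 libraries cannot give less than 0.1, and Kdm3a and Kdm4b were at that smallest value.

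Scaling the libraries so that the 12 NK markers had equal sums, in place of TMM, moved the mouse genes by a common shift. These markers include Gzmb, Il2rb, Tbx21 and Prf1, whose mRNA the paper reports as raised in KO NK cells by RT-qPCR. Values under this scaling therefore also carry any response of the markers themselves to the knockout, which was not tested. The median gene was then at -0.80 on the log2 scale, and all 5 members had negative values. Kdm3a was at -0.41 (edgeR, adjusted p = 0.155), Kdm3b at -0.67 (adjusted p = 0.0246) and Kdm4a at -0.82 (adjusted p = 0.0133). Kdm3b and Kdm4a passed as lower under this scaling, as did 65.2% of all tested genes, so these calls are not particular to them. A change of scaling moves all genes by nearly the same amount, so values relative to the median gene stay nearly the same by construction. They were 0.38 and 0.40 for Kdm3a, 0.11 and 0.13 for Kdm3b, and -0.03 and -0.02 for Kdm4a under TMM and the NK marker scaling. Kdm4b was at 0.21 and 0.21 and Kdm4c at 0.19 and 0.20.

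Ratios of counts between members within a library do not depend on scaling, and they separated Kdm3a from Kdm4a. Counts of Kdm3a were 0.610 to 0.720 of those of Kdm4a in the WT libraries and 0.838 to 0.949 of them in the KO libraries. Counts of Kdm3a per count of Kdm3b ran from 0.351 to 0.408 in WT and from 0.415 to 0.494 in KO, so these ranges came close without touching. Counts of Kdm3a per count of Kdm4b ran from 1.165 to 1.331 in WT and from 1.333 to 1.522 in KO, so these ranges nearly touched. Counts of Kdm4b per count of Kdm4a ran from 0.499 to 0.564 in WT and from 0.616 to 0.628 in KO. These pairs were chosen after their values were seen and carry no test.

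Over the 6 mouse libraries, the level of Kdm3a had the same order as the summed NK markers. In WT, replicates 1, 3 and 2 had 5694, 5967 and 9587 CPM of NK markers beside 63.0, 75.7 and 76.8 CPM of Kdm3a. In KO, replicates 1, 3 and 2 had 10779, 12281 and 12554 CPM of NK markers beside 91.3, 94.5 and 97.7 CPM of Kdm3a. The part of the NK marker level in the difference in Kdm3a between KO and WT was not tested.

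**Figure D2:**
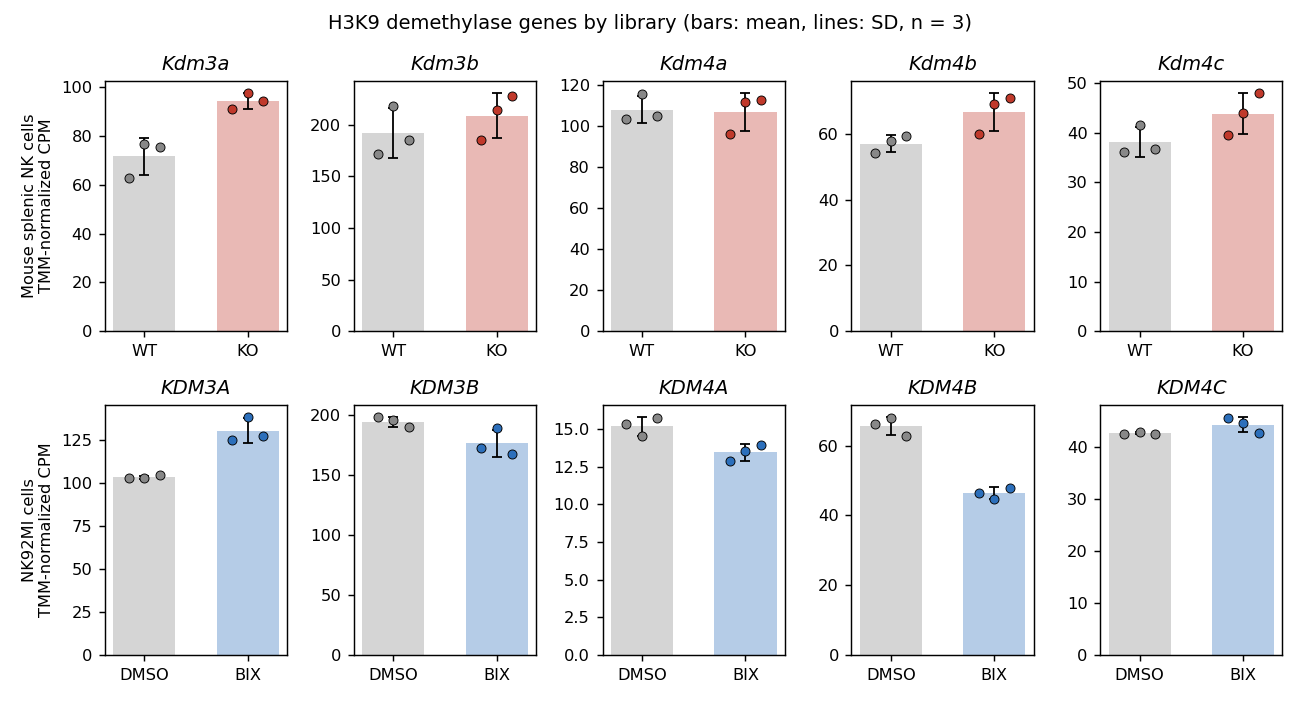
TMM-normalized CPM of each member in the 6 mouse libraries (upper row, WT and KO) and the 6 human libraries (lower row, DMSO and BIX), with points for libraries, bars for the mean and lines for the SD (n = 3). Under TMM, KO lies above WT without overlap for Kdm3a and Kdm4b (all members are lower in KO when scaled to NK markers), and BIX lies above DMSO for KDM3A and below it for KDM3B, KDM4A and KDM4B.

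In NK92MI cells treated with BIX, KDM3A rose and KDM4B fell, and the other members did not pass the test. KDM3A, at chr2:86440647-86492716 on the plus strand (GRCh38), measured 103, 103 and 105 CPM with DMSO and 125, 139 and 127 CPM with BIX. All BIX libraries were above all DMSO libraries, and the DMSO libraries differed among themselves far less than the BIX libraries did. The means were 103 ± 0.931 and 131 ± 7.29 CPM (SD, n = 3), a fold of 1.26 with a 95% confidence interval of 1.15 to 1.39 (log2 0.33 ± 0.06 SE; edgeR's quasi-likelihood test, adjusted p = 0.00118).

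KDM4B, at chr19:4969113-5153598 on the plus strand, moved the other way. It measured 66.2, 68.1 and 62.8 CPM with DMSO and 46.5, 44.7 and 48.0 CPM with BIX. The highest BIX library stayed well below the lowest DMSO library. The means were 65.7 ± 2.65 and 46.4 ± 1.63 CPM (SD, n = 3), a fold of 0.706 with a 95% confidence interval of 0.634 to 0.787 (log2 -0.50 ± 0.07 SE; edgeR, adjusted p = 0.00013). KDM4B was the member called under the study's rule, which called 5.43% of tested human genes as lower and 6.24% as higher, and its fitted value lay just past the fold threshold of that rule. The size fell under that threshold without the DMSO columns CON-1 (-0.498) or CON-2 (-0.477), without BIX replicate 1 (-0.497) or BIX replicate 2 (-0.471), with no filter (-0.497), with the DESeq2 size factors (-0.496) and in DESeq2 (-0.496), while the adjusted p in these settings was at most 0.00168.

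At an adjusted p under 0.05, 1 member passed as higher and 1 as lower, beside 36.9% of all tested human genes (18.4% in each direction). In 4 of the 5 genes the groups did not overlap, 1 higher and 3 lower with BIX, beside 47.9% of all tested genes (24.1% higher and 23.9% lower). An unadjusted p under 0.05 was reached by 46.1% of all tested genes. The median log2 fold change of the 5 members was -0.14, beside -0.01 over all tested genes.

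KDM3B, at chr5:138352685-138437028 on the plus strand, measured 198, 195 and 189 CPM with DMSO and 172, 189 and 167 CPM with BIX. The BIX libraries were all below the DMSO libraries, with BIX replicate 2 only just so. The log2 fold change of -0.14 (95% confidence interval -0.28 to -0.00) did not pass (edgeR, adjusted p = 0.104), and it passed at -0.19 when BIX replicate 2 was left out (adjusted p = 0.0215).

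KDM4A, at chr1:43650149-43705518 on the plus strand, was the least abundant of the human members, with 15.3, 14.5 and 15.7 CPM under DMSO and 12.8, 13.5 and 13.9 CPM under BIX. The libraries held only 211 to 266 counts of it each. The BIX values were all below the DMSO values, but the log2 fold change of -0.18 (95% confidence interval -0.40 to 0.05) did not pass (edgeR, adjusted p = 0.214). In GENCODE v44, 40.2% of the exon bases of KDM4A are shared with a protein-coding gene on the same strand, ENSG00000284989, and 9.12% with the antisense gene KDM4A-AS1, which had 28 to 54 counts. Reads in the shared stretches cannot be assigned to KDM4A with certainty, and the annotation release used for the counting is not given in the sources used here.

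KDM4C, at chr9:6720863-7175648 on the plus strand, measured 42.5, 42.9 and 42.5 CPM with DMSO and 45.6, 44.6 and 42.6 CPM with BIX. BIX replicate 3 fell within the DMSO range. Its log2 fold change was 0.05 with a 95% confidence interval of -0.11 to 0.21 (edgeR, adjusted p = 0.606).

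The opposite movement of KDM3A and KDM4B showed in their count ratio within each library. KDM3A gave 1.51 to 1.66 counts per count of KDM4B with DMSO and 2.65 to 3.10 with BIX. Its counts per count of KDM3B ran from 0.520 to 0.552 with DMSO and from 0.728 to 0.761 with BIX. Neither pair of ranges overlapped, and both pairs were chosen after their values were seen.

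Side by side, Kdm3a in KO mouse cells (log2 0.40) and KDM3A in BIX-treated human cells (log2 0.33) each passed as higher at an adjusted p under 0.05, under TMM scaling. Kdm4b and KDM4B had opposite signs, 0.22 with an adjusted p of 0.130 by edgeR in mouse and -0.50 in human. The experiments differ in species, in the agent that acts on EHMT2 and in the cells, and the difference between them was not tested.

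**Figure D3:**
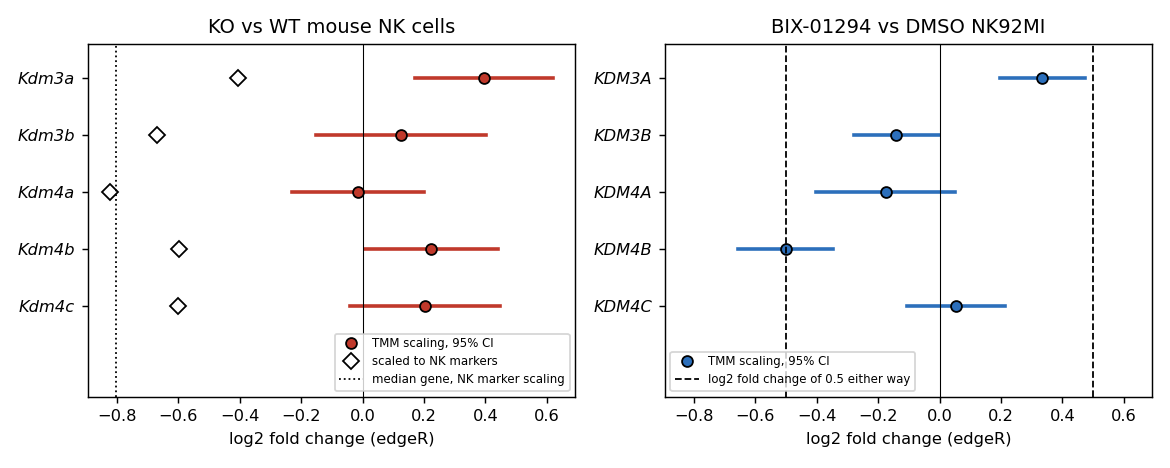
Log2 fold change of each member by edgeR with its 95% confidence interval (points and bars, TMM scaling) for KO against WT (left) and BIX against DMSO (right). Open diamonds on the left give the same mouse genes scaled to NK markers, where Kdm3a falls from 0.40 to -0.41 and the median gene (dotted line) is at -0.80; dashed lines on the right mark a log2 fold change of 0.5 in either direction, which KDM4B just reaches at -0.50.

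Human promoter sequence is shown for the members that moved, since hypoxia-inducible factors, which induce several genes of these families, bind a short core motif. The windows are the 250 bases before a RefSeq transcription start on the plus strand of GRCh38.p14, at chr2:86441121-86441370 for KDM3A and chr19:4968863-4969112 for KDM4B. Capitals mark the motif ACGTG or GCGTG on either strand.
KDM3A: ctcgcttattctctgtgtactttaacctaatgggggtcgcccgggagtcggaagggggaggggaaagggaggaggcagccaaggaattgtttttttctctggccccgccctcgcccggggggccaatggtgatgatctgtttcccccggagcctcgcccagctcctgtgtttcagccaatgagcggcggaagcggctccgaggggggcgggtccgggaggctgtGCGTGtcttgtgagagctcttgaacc
KDM4B: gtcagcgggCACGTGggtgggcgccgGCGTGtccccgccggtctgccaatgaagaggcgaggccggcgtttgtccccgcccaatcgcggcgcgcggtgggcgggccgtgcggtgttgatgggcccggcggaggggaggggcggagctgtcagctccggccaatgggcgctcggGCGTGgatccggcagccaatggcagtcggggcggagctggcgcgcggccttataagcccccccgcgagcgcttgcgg
The KDM4B window held the core at 4 positions and the KDM3A window at 1. Of 35116 RefSeq windows of the same length, 43.2% held at least 1 position and 3.22% held 4 or more. The palindrome CACGTG counts as 2 overlapping positions, and the KDM4B window holds it once.

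Among the other human members, the window of KDM4C held the core at 5 positions, that of KDM4A at 1 and that of KDM3B at 0. Windows with 5 or more made up 1.36% of all windows. Each copy of the palindrome CACGTG in the KDM4C window likewise counts as 2 overlapping positions. The motif CCAAT, searched on both strands, was at 4 positions in the KDM4B window and 2 in the KDM3A window, and 32.0% of all windows held it. The GC content was 75.6% for KDM4B and 62.4% for KDM3A beside a median of 58.0%. RefSeq gives KDM3A a further start, whose window at chr2:86441211-86441460 overlaps the printed window, also holds 1 core position and has a GC content of 68.4%. These matches describe the letters of the windows only.

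Compared per kb of all exon bases, the members ranked differently in the mouse cells and the human line, and this depended on the length used. In WT mouse NK cells the mean levels were 18.7 ± 1.16 CPM per kb for Kdm4a, 13.6 ± 1.70 for Kdm3b, 11.6 ± 0.541 for Kdm4b, 8.73 ± 0.929 for Kdm3a and 6.54 ± 0.516 for Kdm4c (SD, n = 3). No neighbours in this order overlapped over the WT libraries. In KO cells the order was the same, with 18.5 ± 1.60 CPM per kb for Kdm4a and 11.5 ± 0.393 for Kdm3a, and Kdm3b and Kdm4b overlapped. With the length of the longest annotated transcript in place of all exon bases, Kdm3b came first at 30.2 CPM per kb and Kdm3a came after Kdm4a at 14.8 CPM per kb in WT, so the places of all members but Kdm4c moved.

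In NK92MI cells KDM3B was the most abundant member per kb, at 24.7 ± 0.531 CPM per kb with DMSO and 22.4 ± 1.41 with BIX (SD, n = 3). KDM3A followed at 7.78 ± 0.0700 and 9.81 ± 0.549 CPM per kb. KDM4B stood above KDM4C with DMSO (4.46 ± 0.180 against 4.13 ± 0.0240 CPM per kb) and below it with BIX (3.15 ± 0.111 against 4.29 ± 0.146 CPM per kb), and neither pair overlapped. KDM4A was last in both, at 2.93 ± 0.121 and 2.59 ± 0.106 CPM per kb, though 40.2% of its exon bases are shared with another gene. These places were the same with the longest transcript, except that KDM3A and KDM4B then overlapped with DMSO. With that length, the orders in WT mouse cells and in NK92MI cells with DMSO differed in the place of KDM4A alone. Of the summed per-kb level of the 5 members, KDM3A made up 17.7% with DMSO and 23.3% with BIX, and KDM4B 10.2% and 7.47%.

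**Figure D4:**
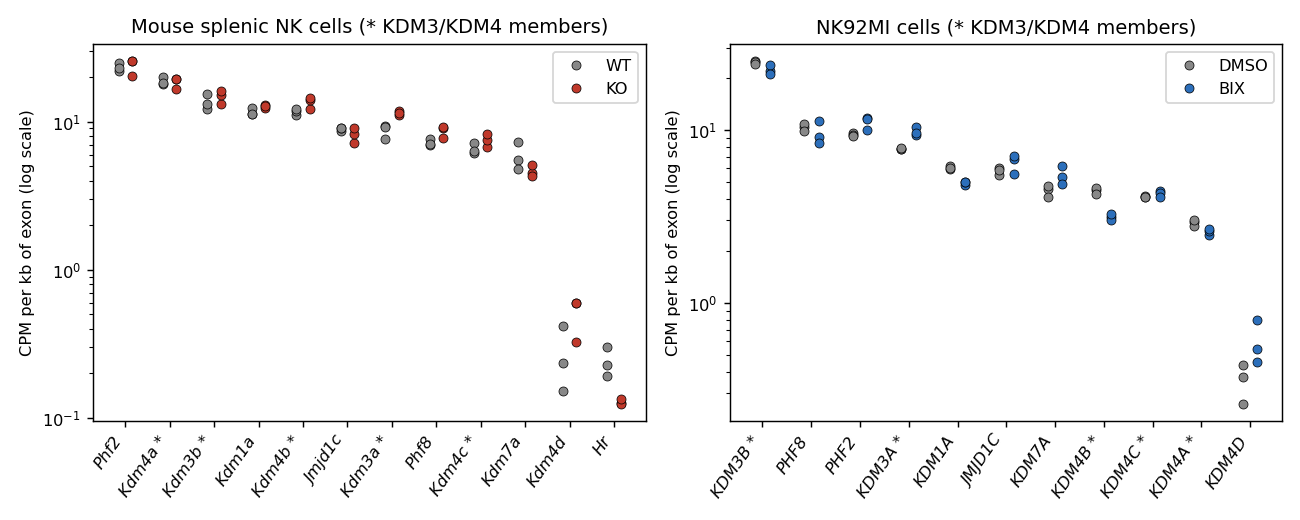
Levels of the H3K9 demethylase genes in CPM per kb of exon (log scale), 1 point per library, ordered by the mean of the control group, with stars on the KDM3 and KDM4 members described here. In NK92MI cells KDM3B leads at 24.7 CPM per kb with DMSO and KDM4B drops from 4.46 to 3.15 CPM per kb with BIX; Kdm4d and KDM4D lie below 1 CPM per kb in every library.

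Kdm4d, the remaining KDM4 gene in the mouse table, was chosen for mention after its values were seen because of its low counts. It had 16 to 31 counts in the WT libraries and 34 to 63 in the KO libraries, with a log2 fold change of 0.93 (edgeR, adjusted p = 0.179). KDM4D had 13 to 22 counts with DMSO and 22 to 40 with BIX, with a log2 fold change of 0.74 (edgeR, adjusted p = 0.101).

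The other genes for H3K9 demethylation did not pass the test in the mouse cells. None of 7 tested (Kdm4d included) had an adjusted p under 0.05 by edgeR, and their median log2 fold change was 0.04 under TMM. Among them Jmjd1c (KDM3C), a further gene of the KDM3 family, was at -0.12 (edgeR, adjusted p = 0.407). Hr, which like Kdm4d had few counts (34 to 78 in WT and 32 to 34 in KO), was at -0.90 (edgeR, adjusted p = 0.0747). In NK92MI cells, of 6 tested, 2 were higher and 1 was lower with BIX, beside 18.4% of all tested genes in each direction. JMJD1C, at 64.8 CPM with DMSO and 72.5 CPM with BIX, did not pass. KDM7A, which demethylates H3K9 and H3K27, rose by 0.29 and PHF2, which removes H3K9 dimethylation, rose by 0.24 on the log2 scale (edgeR, adjusted p = 0.0272 and 0.0303). KDM1A, the flavin-dependent demethylase LSD1, changed from 111 to 90.9 CPM, a log2 fold change of -0.29 (adjusted p = 0.00251). PHF2 did not pass without any of CON-1 to CON-3, BIX replicate 1 or BIX replicate 2 (adjusted p = 0.0544 to 0.135 by edgeR), nor KDM7A without CON-1, CON-2, BIX replicate 1 or BIX replicate 2 (0.0586 to 0.120).

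Of the H3K9 methyltransferase genes, 1 of 7 passed as lower in each species and none was higher, and that gene was Ehmt2 or EHMT2. Over all tested genes, 7.43% passed as lower in mouse and 18.4% in human. EHMT1 differed by -0.17 in BIX-treated cells (edgeR, adjusted p = 0.0664), and by -0.22 without BIX replicate 2 (adjusted p = 0.0234). Among 9 genes for H3K9 readers and adaptors, none passed in mouse, where the list median was 0.18 under TMM. In human, 2 were higher and 3 lower, beside 18.4% of all tested genes in each direction. The lower ones were WIZ, a zinc finger partner of EHMT2 and EHMT1, at -0.50 (edgeR, adjusted p = 0.000147), ATF7IP, a partner of SETDB1, at -0.47 (adjusted p = 0.000727), and TRIM28, the co-repressor KAP1, at -0.35 (adjusted p = 0.00115). The higher ones were ZNF644, another zinc finger partner of EHMT2, at 0.37 (edgeR, adjusted p = 0.00104), and MPHOSPH8, an H3K9 methyl reader of the HUSH complex, at 0.21 (adjusted p = 0.0376). MPHOSPH8 did not pass when any of CON-1 to CON-3, BIX replicate 1 or BIX replicate 2 was left out (edgeR, adjusted p = 0.0909 to 0.118).

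The other JmjC demethylase genes share the catalytic fold and cofactors of the members but act mainly on residues other than H3K9. With BIX, 4 of 9 passed as higher and none as lower. Over all tested genes, 18.4% passed in each direction. KDM6B, an H3K27 demethylase, went from 11.8 ± 1.51 to 26.6 ± 1.22 CPM, a fold of 2.25 (edgeR, adjusted p = 3.94e-06). JMJD6, a JmjC protein known as a lysyl hydroxylase, had a fold of 1.63 (adjusted p = 6.19e-06). KDM2A and KDM2B, which are H3K36 demethylases, were higher by 0.28 and 0.26 on the log2 scale (edgeR, adjusted p = 0.00422 and 0.00903), and KDM2B did not pass without CON-3 (adjusted p = 0.0565). In mouse cells, none of the 9 passed, with a list median of 0.15 under TMM.

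Of 11 genes analysed for the metabolism of 2-oxoglutarate and its relatives, on which JmjC enzymes depend, 1 was higher and 6 lower with BIX. At the same threshold, 18.4% of all tested genes passed in each direction. The list was shortened after its values were seen, because some of its genes are not reported here, so this split by direction is not that of the full list. IDH2, which makes 2-oxoglutarate in mitochondria, went from 249 ± 19.9 to 142 ± 12.5 CPM (log2 -0.81; edgeR, adjusted p = 4.1e-06). D2HGDH, which oxidizes the D form of 2-hydroxyglutarate, a competitor of 2-oxoglutarate, was at -1.25 (edgeR, adjusted p = 9.42e-05). OGDH, of the 2-oxoglutarate dehydrogenase complex, was at -0.31 and SDHB, a subunit of succinate dehydrogenase, at -0.33 (edgeR, adjusted p = 0.00545 and 0.00818). GLUD1, which makes 2-oxoglutarate from glutamate, was at 0.24 (edgeR, adjusted p = 0.00711).

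In the mouse cells 1 of the 11 cofactor genes passed, as lower, beside 7.43% of all tested genes. Idh2 went from 48.2 ± 9.29 CPM in WT to 25.6 ± 4.62 CPM in KO (log2 -0.91; edgeR, adjusted p = 0.0327), so that the IDH2 gene was lower in both experiments. Its adjusted p in mouse was 0.0810 to 0.137 when WT replicate 1, WT replicate 3, KO replicate 2 or KO replicate 3 was left out, with log2 values of -0.92 to -0.77 and at most 99 of all genes passing. How far the lower markers of other cell types in KO enter the mouse value of Idh2 was not tested.

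Among genes of the hypoxia response tested in NK92MI cells, 4 of 11 passed as higher with BIX and 1 as lower, beside 18.4% of all tested genes in each direction. By fitted value 6 were higher and 5 lower. NDRG1 had a fold of 1.91 (edgeR, adjusted p = 2.91e-05). HIF1A, the oxygen-regulated subunit of the factor, had a fold of 1.31 and P4HA1, a collagen prolyl hydroxylase, a fold of 1.32 (edgeR, adjusted p = 0.00051 and 0.00649). PDK1, a kinase that restrains pyruvate dehydrogenase, had a fold of 1.23 (adjusted p = 0.0186), and ARNT, the constitutive partner of HIF1A, a fold of 0.794 (adjusted p = 0.00339), by edgeR. PDK1 did not pass without CON-1 (edgeR, adjusted p = 0.0844) or CON-2 (adjusted p = 0.0711).

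In the mouse cells, 3 of 13 hypoxia genes passed as lower in KO and none as higher, beside 7.43% and 4.44% of all tested genes. By fitted value 4 were higher and 9 lower. None of the 4 higher ones passed. They were Vegfa (log2 0.65), Egln1 (0.36), Slc2a1 (0.34) and Arnt (0.09), with adjusted p = 0.0760, 0.0551, 0.134 and 0.567 by edgeR. Hif1a was at -0.37, Pdk1 at -0.39 and Ndrg1 at -0.56 on the log2 scale (edgeR, adjusted p = 0.0446, 0.0404 and 0.0472). Kdm3a, itself known as a target of the hypoxia-inducible factor, was higher under TMM in the same libraries. Leaving out 1 library kept these 3 genes lower, with log2 values between -0.70 and -0.34, and the calls were lost without WT replicate 3, KO replicate 2 or KO replicate 3, where 14, 0 and 0 of all genes passed, and without KO replicate 1 (edgeR, adjusted p = 0.0529 to 0.0709), where 2032 did. Pdk1 and Hif1a also did not pass without WT replicate 1 (edgeR, adjusted p = 0.110 and 0.124), where 99 genes did. Whether the mouse and human differences differ from each other was not tested. The part of the difference in cell type markers between WT and KO in these mouse values was not tested either.

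**Figure D5:**
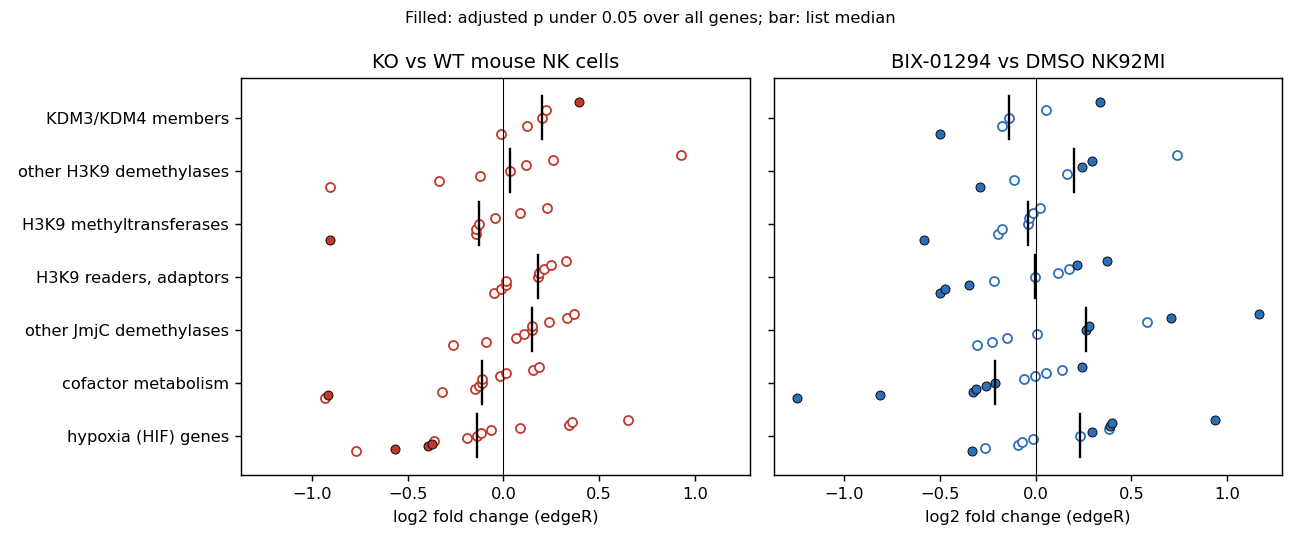
Log2 fold change by edgeR (TMM scaling) of every tested gene in the member list and 6 related lists, for KO against WT (left) and BIX against DMSO (right), 1 point per gene. Filled points passed at 0.05 after adjustment across all genes, and vertical bars mark list medians; the hypoxia list has 3 filled points below 0 in mouse and 4 above 0 and 1 below in human.

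The genes whose levels over the 6 mouse libraries were most like that of Kdm3a were Gipc2, Sptlc2 and Nfil3, with Pearson correlations of 0.999, 0.998 and 0.998 on the log2 scale. Nfil3, a transcription factor required for NK cell development, was itself at 0.65 in KO (edgeR, adjusted p = 0.0406), whereas Sptlc2 was at 0.19 (adjusted p = 0.119) and Gipc2 at 0.71 (adjusted p = 0.0686). For KDM4B over the 6 human libraries they were MLX, ENSG00000279672 and AP2A1, each with a correlation above 0.99 and lower with BIX, at -0.39, -0.94 and -0.35 (edgeR, adjusted p = 0.00046, 7.88e-05 and 0.000643). Each set of 6 libraries holds both groups of its experiment, so a shared difference between groups enters these correlations, and they are a description without a test.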

How the data were processed

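Libraries of polyadenylated RNA were made with the NEBNext Ultra kit per the labels. According to the study's methods and the submitters' processing notes, the authors trimmed reads with fastp 0.23.4, aligned them with STAR 2.7.11b to GRCm38 or GRCh38 and counted them per gene with HTSeq 2.0.3. The deposited tables hold the authors' raw counts per gene and library, not normalized, 22021 genes in mouse and 18304 in human; the annotation release and strand setting are not given in the sources used here. Columns were tied to samples by name, and the human CON columns to the DMSO group without numbers.

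From these counts, 1 model per species was fitted across all genes that passed filterByExpr with edgeR 4.0.16 (TMM, quasi-likelihood test, Benjamini-Hochberg adjustment over all tested genes; R 4.3.3), without covariates. CPM were TMM-normalized. Per-length values used the exon bases of GENCODE M21 (mouse) and v44 (human), which have the builds of the files but may not be the release the authors used. Standard errors were taken from the F statistic, and confidence intervals are at 95%. The call rules were, the study's (a log2 fold change beyond 0.5 together with an adjusted p below 0.01) and an adjusted p under 0.05. The alternatives were DESeq2 1.42.0, limma 3.58.1 (voom), other size factors and filters, scaling to 12 NK markers, a replicate block and leaving out each library. The fits were tested on simulated counts with known changes.

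All members were named, with every gene of 6 related lists at an adjusted p under 0.05 (at most 4 per list and direction, by smallest p), Ehmt2 and Ehmt1, and the 3 genes most correlated with the member of smallest p. Hr and the 4 hypoxia genes higher in KO by fitted value were named as well, after their values were seen. Some genes of the list for cofactor metabolism are not reported here and were left out of its counts after the values were known; they stayed in the fits over all genes. The members and lists were chosen with earlier results of these data known. Replicate libraries differed by more than sampling noise, with a chi-square per gene of 2.82 to 76.8, where sampling alone gives about 1, so none was counted as a duplicate.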

Additional observations from a re-analysis of the deposited data

How the results depend on the processing

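Of 130 values of members under single alternatives, 118 kept their direction and their side of an adjusted p of 0.05, 4 lost the call (all Kdm3a), 2 gained it and 6 reversed. The reversals were Kdm3a (-0.41), Kdm3b (-0.67), Kdm4b (-0.60) and Kdm4c (-0.60) under scaling to NK markers, and Kdm4a without WT replicate 2 (0.04) and without KO replicate 1 (0.051), in a range of -0.055 to 0.051 when a library was left out; of the related genes, Ehmt1 reversed under scaling to NK markers (-0.73). The NK scaling shifts every gene by construction. With it, 2 mouse members passed at 0.05 (Kdm3b and Kdm4a), beside 8628 of 13189 genes.

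Members called by the study's rule in mouse stayed at 0, and were 1 when the rule was an adjusted p under 0.05 alone. Leaving out 1 library gave 0 to 1 mouse members at 0.05. In human, 1 member (KDM4B) was called, 0 with DESeq2 size factors, 0 with no filter, 0 in DESeq2 and 0 to 1 when a library was left out; the rule at 0.05 alone gave 2, and leaving out a library gave 2 to 3 members at that threshold. The log2 fold change of KDM4B stayed between -0.53 and -0.47 and that of KDM3A between 0.29 and 0.37 in all 12 alternatives run.

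Over all mouse genes, the study's rule called 0, but 34 with no filter, 1495 in DESeq2, 3 in limma-voom, 3367 under NK scaling and 0 to 1163 when a library was left out, the highest without WT replicate 2; the rule at 0.05 alone called 1565. At 0.05 there were 1565, and 3087 in DESeq2, 8628 under NK scaling and 0 to 3530 when a library was left out. In human the study's rule called 1485 genes and the rule at 0.05 alone 4692. Apart from the NK scaling, the cause of these changes was not tested.

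Samples with the same replicate number deviated together with r = 0.28, 0.35 and -0.19 in mouse, and WT replicate 3 was closest to KO replicate 1 (r = 0.28), so the numbers were not taken as pairs. With the replicate block, 819 mouse genes were called by the study's rule and 3222 at 0.05, no member was called by the study's rule and Kdm3a passed at 0.05 (log2 0.40, adjusted p = 0.0172, edgeR). No paired analysis was possible for the human libraries because the control columns carry no replicate number that the labels tie to a sample. Of the 5 human members, KDM4A had the fewest counts (211 to 266 per library).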
